A study of Danio rerio with 16 samples.

Results

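The expression of 3 DNA replication genes, *mcm6l* (ENSDARG00000033231), *nasp* (ENSDARG00000039208) and *orc1* (ENSDARG00000039217), was followed fish by fish in the gonads of adult zebrafish. They are part of 32520 annotated genes, of which 28353 had normalized counts. The 3 genes were chosen by their normalized counts in these libraries. *nasp* and *orc1* had stood out between females at 200 and 50 μg/L of the drug and between the control females, and the identifiers come from a table of genes that differed between control males and control females. Those contrasts are therefore described below without a test. DNA is copied once per cell cycle from origins that are first licensed. The origin recognition complex binds the DNA, and ORC1 is its subunit that joins CDC6 in loading the ring-shaped MCM2 to MCM7 helicase. NASP is a chaperone that holds histones H3 and H4 and linker histones until new chromatin is assembled. Vertebrate eggs store the products of such genes from the mother, since the first divisions of the embryo run before its own genome is transcribed. In *Xenopus*, a maternal MCM6 is replaced by a zygotic one later in development, and RefSeq gives zebrafish *mcm6l* the synonym MCM6m and its paralog *mcm6* the synonym MCM6z.

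The libraries were made from the testes or ovaries of 16 AB strain fish, 4 months old, after 32 days in water with the aromatase inhibitor exemestane (EM), a drug that blocks the making of estrogen from androgen. There were 8 groups, males and females at 0, 50, 100 and 200 μg/L, with 2 fish in each and 1 fish per library. Those at 0 μg/L are labelled as controls and were taken as the solvent control of the study, dimethyl sulfoxide without EM. The 3 males and 3 females of a treatment shared 1 tank, so tank and treatment cannot be told apart. Between 200 and 50 μg/L, p-values measure the spread between fish of the same tank. Where concentrations are pooled, the spread among EM fish also holds differences between tanks and concentrations.

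Reads counted on genes numbered 4043394 to 13821205 per library, with medians of 5666585.5 in EM-males and 12210745.5 in EM-females. Values are normalized counts, that is reads divided by a size factor of the library. They are compared between fish for 1 gene and not between genes, since gene length was not taken into account. The size factors were set over both sexes together and assume that most genes do not differ. Between EM-males and EM-females 76% of the genes tested were called, so levels of testis and ovary are less surely comparable. The labelled sexes were borne out by marker genes. *amh*, a testis hormone gene, had 341 to 2754 normalized counts in males and 0.790 to 4.19 in females, and *zar1*, an oocyte gene, had 19.2 to 58.5 in males and 6068 to 8673 in females. In these bulk samples fewer cells of a type and less RNA per cell cannot be told apart.

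*mcm6l*, a gene for the MCM6 subunit of the helicase, was low in every testis and high in every ovary. In males it had 18.7 and 18.7 normalized counts at 0 μg/L, 144 and 33.5 at 50 μg/L, 83.7 and 78.1 at 100 μg/L, and 204 and 113 at 200 μg/L. In females it had 3126 and 3218 at 0 μg/L, 3279 and 417 at 50 μg/L, 1572 and 1537 at 100 μg/L, and 2106 and 1422 at 200 μg/L. The values of the 2 control males rest on 7 and 27 reads. The female with 417, replicate 2 at 50 μg/L, stood 3.41-fold below the next lowest female and still above every male. By group mean, the order ran upward from control males through males at 100, 50 and 200 μg/L to females at 100, 200 and 50 μg/L and control females. Neighbors in this order overlapped in their values, except control males against males at 100 μg/L and males at 200 μg/L against females at 100 μg/L.

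*nasp* was at 1 of 2 very different levels in ovaries. Females had 8583 and 333 normalized counts at 0 μg/L, 9395 and 12264 at 50 μg/L, 340 and 18821 at 100 μg/L, and 384 and 368 at 200 μg/L. So 4 females lay at 8583 or more, namely control replicate 1, both fish at 50 μg/L and replicate 2 at 100 μg/L, and the other 4 lay at 384 or less, with a 22.4-fold gap between them. Gaps were ranked in log2(normalized count + 1) among the 10065 genes with a mean of at least 50 normalized counts over the 8 females. A gap at least as wide between any neighboring values was found for 1.09% of them. *nasp* was chosen partly for differences between these females, so this share is a description. Males had 626 and 891 at 0 μg/L, 632 and 518 at 50 μg/L, 708 and 616 at 100 μg/L, and 372 and 209 at 200 μg/L, all below the higher set of females and partly within the lower one. By group mean, only males at 50 μg/L and females at 200 μg/L did not overlap among neighbors in the order of levels.

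*orc1* divided the females in the same way. They had 586 and 11.9 normalized counts at 0 μg/L, 1037 and 784 at 50 μg/L, 18.0 and 1602 at 100 μg/L, and 22.1 and 16.6 at 200 μg/L. The 4 females that were high for *nasp* were high for *orc1*, at 586 or more. The other 4 had 22.1 or less, a 26.5-fold gap. Ranked in the same way, 0.934% of the 10065 genes had a gap at least as wide, again a description of a gene chosen partly for it. Males had 72.2 and 197 at 0 μg/L, 141 and 46.9 at 50 μg/L, 118 and 125 at 100 μg/L, and 140 and 55.4 at 200 μg/L. Unlike for *mcm6l*, the 8 males thus lay between both sets of females. Again only males at 50 μg/L and females at 200 μg/L did not overlap among neighbors in the order of group means.

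**Figure D1:**
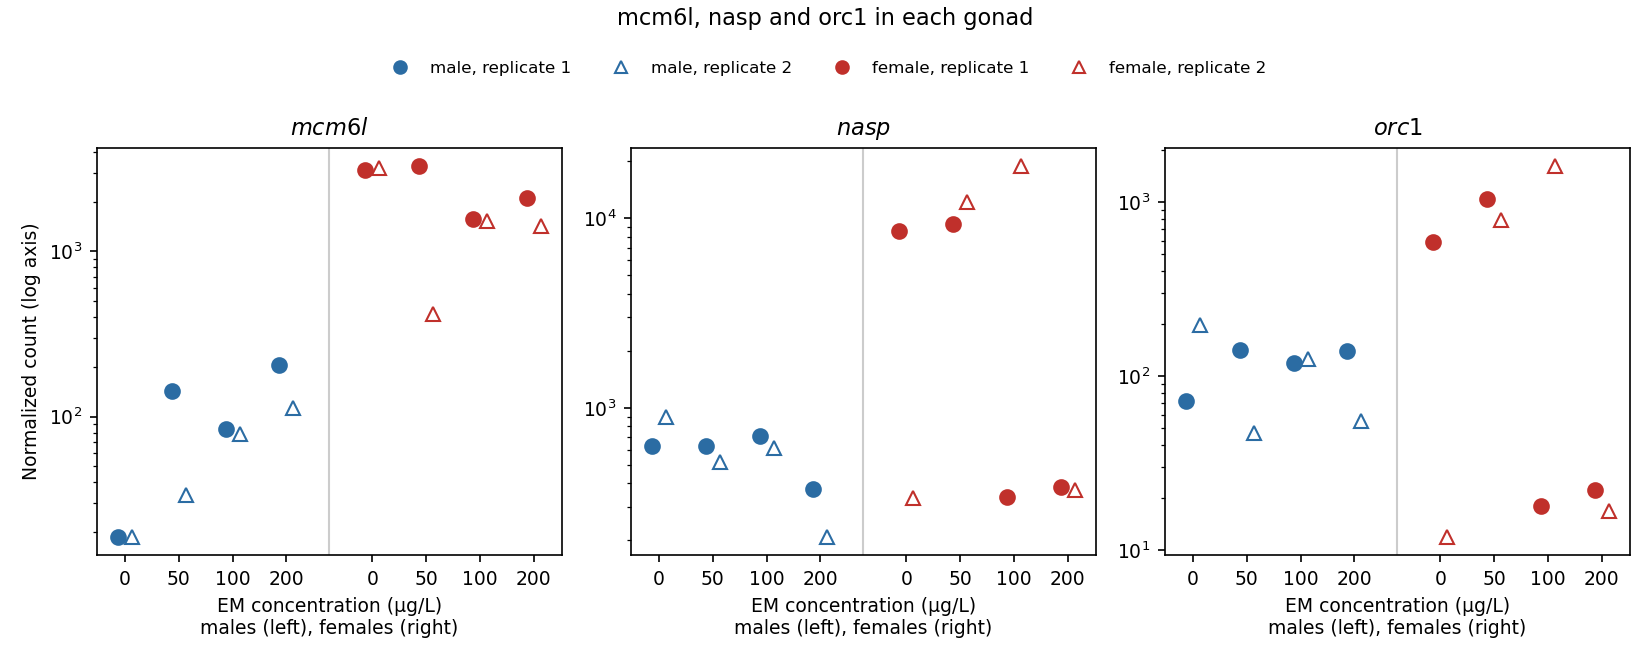
Normalized counts (log axis) of *mcm6l*, *nasp* and *orc1* in each of 16 gonads against EM concentration in μg/L, with males left and females right in each panel, filled circles for replicate 1 and open triangles for replicate 2. Each point is 1 fish; *mcm6l* separates the sexes, while 4 females lie at 8583 or more and 4 at 384 or less for *nasp*, and the same 4 females are the higher ones for *orc1*.

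Across the 8 females, the log2(normalized count + 1) values of *nasp* and *orc1* had a Pearson's r of 0.995 (Spearman's rho 0.952), and r was 0.994 without the 2 females farthest from the median of *nasp*. With values in separate sets of 4 fish, this coefficient describes mainly the step between them. In the 8 males r was 0.556, and 0.839 without the 2 farthest. Between *mcm6l* and *nasp* r was −0.22 in females and turned to 0.652 without the 2 farthest, so its sign rests on those fish. Between *mcm6l* and *orc1* it was −0.18, and −0.015 without the 2 farthest. Because the pair was chosen for its pattern in these females, these values are a description.

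The genes with the pattern most like that of *nasp* over the 8 females, among 10064 compared, were *orc1*, ENSDARG00000105499 (r = 0.987), *prpf38a* (0.986), *gpbp1l1* (0.982) and *zgc:175135* (0.970). Those most like *orc1* were *nasp*, *gpbp1l1* (0.987), ENSDARG00000105499 (0.983), *prpf38a* (0.974) and *zgc:114119* (0.964). At the opposite end, *lta4h*, *slc35f3a* and *trap1* ran against both genes, with r from −0.98 to −0.96. The ranking depended on the measure, since 1 of the 5 genes nearest to *nasp*, and 1 of those nearest to *orc1*, stayed among the first 5 by Spearman's rho.

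Several of these genes sit beside each other. In the RefSeq annotation of the GRCz12tu assembly, *nasp* and *orc1* lie 3 genes apart on chromosome 6, with *akr1a1b*, an aldo-keto reductase gene, and *prpf38a*, a splicing factor gene, between them. On the other side *gpbp1l1* lies 2 genes and *mast2*, a kinase gene, 4 genes from *nasp*. All 5 genes among the 5 nearest on either side of *nasp* that had a mean of at least 50 normalized counts in females had an r of 0.955 to 0.995 with it, and for *orc1* the same held for 4 of 4 genes, with r from 0.944 to 0.995. The remaining neighbors were low or could not be matched to a counted gene. The order is that of another strain's assembly, and the counts were made on GRCz11.

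The neighbors showed the same 4 high and 4 low ovaries. *akr1a1b* had 722 and 17.0 normalized counts in the control females, 170 and 885 at 50 μg/L, 8.39 and 1659 at 100 μg/L, and 26.1 and 10.0 at 200 μg/L. *prpf38a* had 324 and 23.8, 273 and 343, 12.6 and 629, and 11.1 and 9.31 in the same order of concentrations. *gpbp1l1* had 261 and 20.4, 296 and 324, 29.9 and 687, and 51.3 and 26.6. Their widest gaps were 6.53-, 11.5- and 5.08-fold, each between the same 4 females and the other 4, and that of *mast2* was 2.56-fold. *mpl*, whose RefSeq model overlaps that of *orc1*, had at most 41.0 normalized counts, and counting was stranded.

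With *orc1*, r over the 8 males was 0.894 for *gpbp1l1*, 0.811 for *prpf38a*, 0.556 for *nasp* and 0.368 for *akr1a1b*. Control male replicate 2, with the largest size factor of the males, 1.44, was highest for *orc1* and *gpbp1l1*. The part of depth in these coefficients was not tested. *gpbp1l1* ranged from 63.9 to 842 and *prpf38a* from 14.9 to 222 in males.

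Over the whole genome, 20 genes had an r above 0.9 with *nasp* in females, and 8 of the 17 with a known chromosome were on chromosome 6, against 4.35% of the genes compared. These were *orc1*, *akr1a1b*, *prpf38a*, *gpbp1l1* and *mast2*, and in addition *pik3r3b*, which lies 8 genes from *nasp*, *ttc4*, 53 genes away, and *mtrf1*, 657 genes away. *pik3r3b*, *ttc4* and *mtrf1* lie outside the rule for named genes and were picked after their values were seen. For *orc1*, 8 of 16 such genes were on chromosome 6. Genes and fish are shared between these coefficients, and no test was made.

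**Figure D2:**
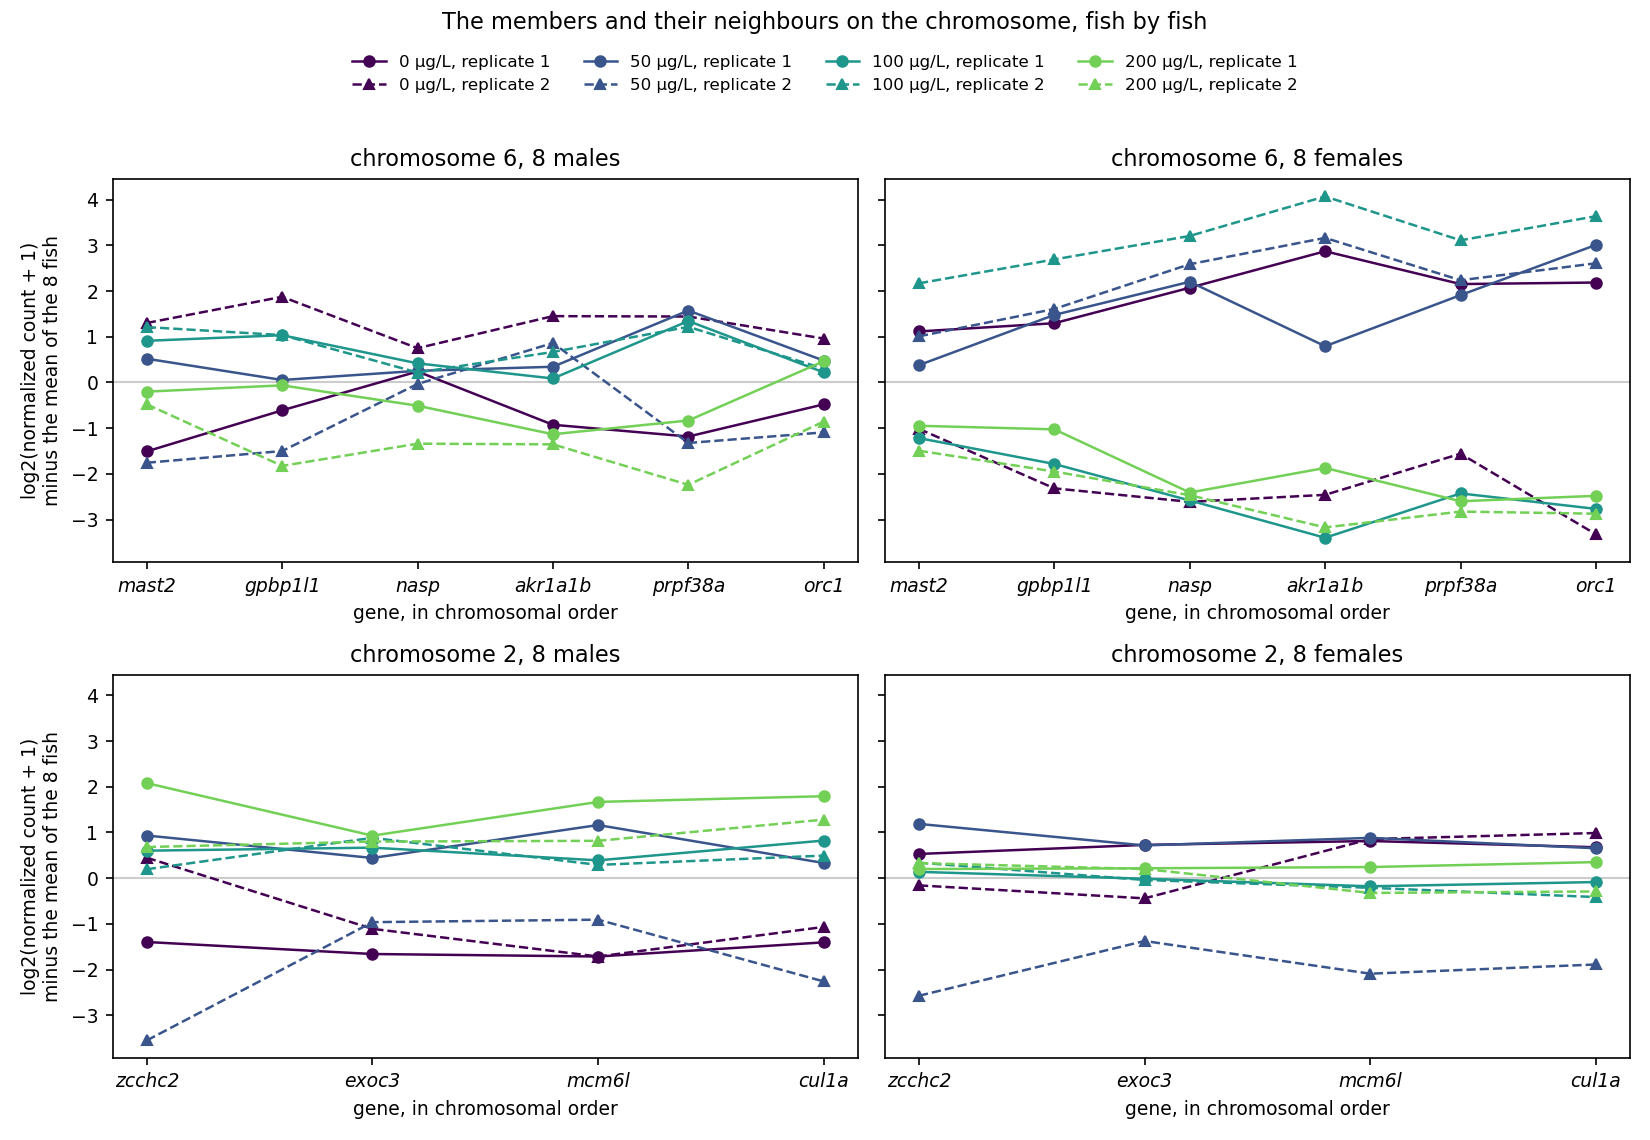
log2(normalized count + 1) minus the mean of the 8 fish of a sex, for genes in their RefSeq order on chromosome 6 (upper panels) and chromosome 2 (lower panels), males left and females right, with 1 line per fish colored by EM concentration. In females the 6 genes of chromosome 6 keep 4 fish above and 4 below the mean, and the 4 genes of chromosome 2 keep replicate 2 at 50 μg/L lowest.

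*mcm6l* lies on chromosome 2, and its closest match of 10064 genes in females was *cul1a*, a cullin gene of ubiquitin ligases that lies 2 genes away, with r = 0.988. *cul1a* had 602 and 747 normalized counts in the control females, 592 and 101 at 50 μg/L, 355 and 282 at 100 μg/L, and 480 and 307 at 200 μg/L. The female that was low for *mcm6l* was therefore the lowest for *cul1a* too. Among the 5 genes on either side, 3 had a mean of at least 50. Of these, 2 had an r above 0.8, *cul1a* and *zcchc2* (0.86), while *exoc3*, a gene of the exocyst, had 0.796. Spearman's rho was 0.905 for *cul1a* but only 0.452 for *zcchc2* and 0.524 for *exoc3*. Pearson's r of *zcchc2* and *exoc3* thus leans on the 1 low female. In all of *cul1a*, *zcchc2* and *exoc3*, replicate 2 at 50 μg/L was the lowest female, with 101, 27.2 and 111 normalized counts.

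In males *cul1a* also ran with *mcm6l*, with r = 0.869 over 8 fish. Its normalized counts were 93.6 and 118 without EM, 314 and 51.3 at 50 μg/L, 442 and 351 at 100 μg/L, and 866 and 607 at 200 μg/L. Replicate 2 at 50 μg/L was the lowest of the 6 EM-males for *mcm6l*, *cul1a*, *zcchc2* and *exoc3* alike. The other genes most like *mcm6l* in females were *fam168b* (r = 0.949), *zgc:171673* (0.943), *ptcd1* (0.910) and *dda1* (0.908), and those running against it were *si:ch211-157j23.2* (−0.94), ENSDARG00000105034 (−0.93) and *dnttip2* (−0.92). None of the 5 nearest genes by Pearson's r was among the first 5 by Spearman's rho, which gives less weight to the 1 low female.

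The spread between females set the 3 genes apart from most of the genome, as a description of genes partly chosen for it. The highest female over the lowest was 7.86-fold for *mcm6l*, 56.5-fold for *nasp* and 135-fold for *orc1*, against a median of 1.79-fold over the 10065 genes. Ranges at least as wide were found for 723, 221 and 111 of these genes. Medians and ranks in this paragraph were taken in log2(normalized count + 1), while the ratios of the 3 genes are of normalized counts. For *mcm6l* the female range rests on the 1 fish at 417, as the other 7 had 1422 to 3279. In males the ratios were 10.9-, 4.27- and 4.22-fold against a median of 3.42-fold over 13002 genes, so that *mcm6l* was farthest above it. Male ranges at least as wide as that of *mcm6l* were found for 2077 of these genes. Its lowest males, the controls, rest on 7 and 27 reads.

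The spread between ovaries was also measured for other replication genes. The genes came from 6 lists, of replication functions and of mitotic cyclins and kinases, all called replication genes here. Of the 106 genes identified, 98 besides the 3 had a mean of at least 50 normalized counts in females. On the scale of log2(normalized count + 1), their highest over lowest female had a median of 1.52-fold. It exceeded 4-fold for 12 of them, among them *wee2* (49.7-fold in normalized counts), a kinase gene of the mitotic list. Others were *rrm2* (4.98-fold), a subunit of ribonucleotide reductase, and *chaf1a* (4.06-fold), of the histone chaperone CAF-1. Over all genes 14.2% exceeded 4-fold, a share close to that of these lists, and the median was 1.79-fold. The widest was *gmnn*, for geminin, the inhibitor of licensing, at 526-fold. It had 17.3 normalized counts in replicate 2 at 50 μg/L, the female that was low for *mcm6l*, and 4186 to 9118 in the other 7. In males it had 13.4 in replicate 2 at 50 μg/L and 100.003 to 1344 in the other 7. *gmnn* lies on chromosome 19.

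Only *mcm2* among the 98 had an r above 0.8 with *nasp* over the females (0.89), and it ranged from 3632 to 6682 normalized counts. With *mcm6l*, *gmnn* (0.87) and the histone gene *h2afx* (0.81) did.

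**Figure D3:**
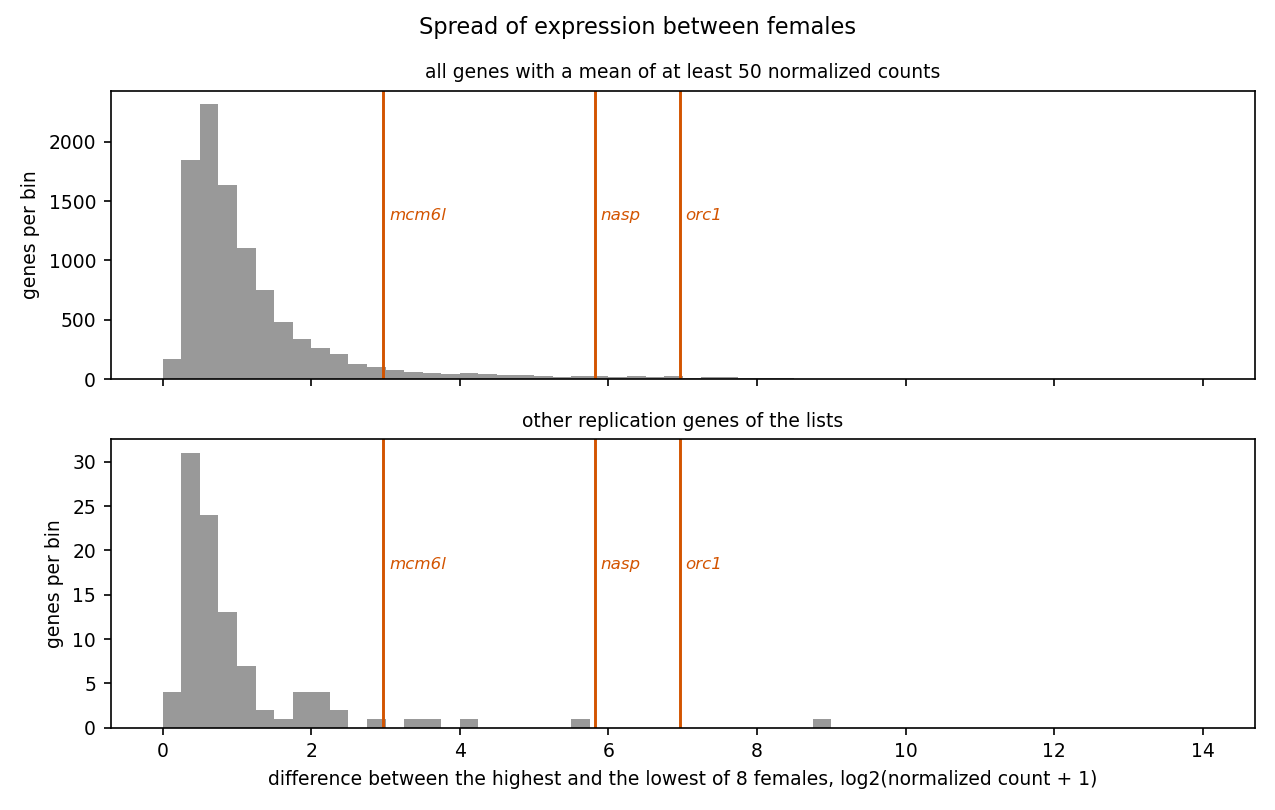
Number of genes (vertical axis) by the difference between the highest and the lowest of 8 females in log2(normalized count + 1), for all 10065 genes with a mean of at least 50 normalized counts (upper) and for the 98 other replication genes (lower). Vertical lines mark *mcm6l*, *nasp* and *orc1*, to the right of most genes in both panels. The replication gene farthest right is *gmnn*, at 8.96 on this axis, or 526-fold in normalized counts.

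The sex difference was examined in the EM-treated fish, which the table of identifiers did not use. The females at 50 and 200 μg/L, however, had entered the choice of *nasp* and *orc1*, so for these genes the comparison is a description with no test. For *mcm6l* p-values are given. It too was chosen with results of these libraries known, so they are not independent of its choice. Of 17253 genes tested in 6 EM-males against 6 EM-females, 76% were called at an adjusted p under 0.05 with edgeR's quasi-likelihood test, 41.4% as higher and 34.6% as lower in EM-males, so a call is the common outcome here. *mcm6l* was called as lower in EM-males.

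*mcm6l* averaged 109 ± 59.4 normalized counts in EM-males and 1722 ± 940 in EM-females (SD, n = 6 each). EM-males over EM-females came to −4.09 on the log2 scale (standard error 0.49; edgeR adjusted p = 4.08e-06), 17.0-fold lower. Every EM-male lay below every EM-female, as for 24.7% of the genes tested, and an exact permutation test of the mean log2 values gave a two-sided p of 0.00216, the smallest that 6 against 6 fish can give. The call held in all 18 alternative fits. At each of the 4 concentrations both males lay below both females.

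*nasp* averaged 509 ± 187 in EM-males and 6929 ± 7814 in EM-females (SD, n = 6 each). EM-males over EM-females came to −3.90 on the log2 scale (standard error 1.00). The groups overlapped, because 3 EM-females, at 340, 368 and 384, were within the range of 209 to 708 of the EM-males. On mean log2 values, which weigh the high fish less, the difference was −2.20.

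*orc1* averaged 104 ± 42.2 in EM-males and 580 ± 669 in EM-females (SD, n = 6 each). The ratio was −2.59 on the log2 scale (standard error 1.03). It rests on the 3 high EM-females, since the other 3, at 16.6, 18.0 and 22.1, lay below every EM-male. At 50 μg/L both males were below both females, and at 200 μg/L both males, at 140 and 55.4, were above both females, at 22.1 and 16.6. The difference in mean log2 values was −0.61, and without the EM-female replicate 2 at 100 μg/L it was 0.08.

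The sexes also differed in marker genes of gonad cells and other tissues. The summed normalized counts of 12 oocyte markers were 371 to 712 in EM-males and 63084 to 76822 in EM-females, and those of 13 testis markers were 14901 to 25721 in EM-males and 4301 to 9482 in EM-females. With edgeR, 12 of 12 oocyte markers were called as lower in EM-males, and 11 of 13 testis markers as higher and 1 as lower, with *dmc1* and *tekt2* at 3 counts or fewer in every female. Of all genes tested, 76% were called. Liver markers summed to 837 to 19260 in EM-males and 27.0 to 356 in EM-females. The sum of the 5 ovarian somatic markers was also higher in EM-males, at 6203 to 13349 against 68.3 to 149, so it did not follow the list's name. Only 2 of the 5 passed the filter and were tested with edgeR, and both were called as higher. *fshr* had 3 counts or fewer in every female and every male. Blood cell markers summed to 226 to 3110 against 24.6 to 93.2, and premeiotic and meiotic germ cell markers to 9204 to 35645 against 5664 to 7641. Their part in the sex differences was not tested.

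In the controls the sexes can only be described. *mcm6l* had 18.7 and 18.7 normalized counts in control males against 3126 and 3218 in control females, *nasp* had 626 and 891 against 8583 and 333, and *orc1* had 72.2 and 197 against 586 and 11.9. For *nasp* and *orc1* the males lay between the females.

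The paralog *mcm6* (ENSDARG00000057683) had the opposite distribution of *mcm6l*. In EM-males it had 880 to 2241 normalized counts, against 1.24 to 4.97 in EM-females. Control males had 869 and 2434, against 8.77 and 3.40 in control females. EM-males over EM-females came to 9.08 on the log2 scale (edgeR adjusted p = 5.36e-11), the highest of the replication lists. Reads that aligned to several places were not counted, at 24.8 to 36.7% per library, so counts of paralogs rest on the reads that tell them apart.

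The MCM3 subunit had a similar pair of genes. *mcm3* averaged 1052 normalized counts in EM-males and 23.2 in EM-females, 5.38 on the log2 scale (edgeR adjusted p = 3.07e-07), and *mcm3l* averaged 61.5 in EM-males and 848 in EM-females, −3.90 on that scale (edgeR adjusted p = 9.06e-08). Subunits with a single gene in the lists differed less. *mcm4* and *mcm5* were lower in EM-males, with log2 fold changes of −1.75 and −2.04, as was *mcm2* with −1.30, and *mcm7* was not called, with 0.24. 

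**Figure D4:**
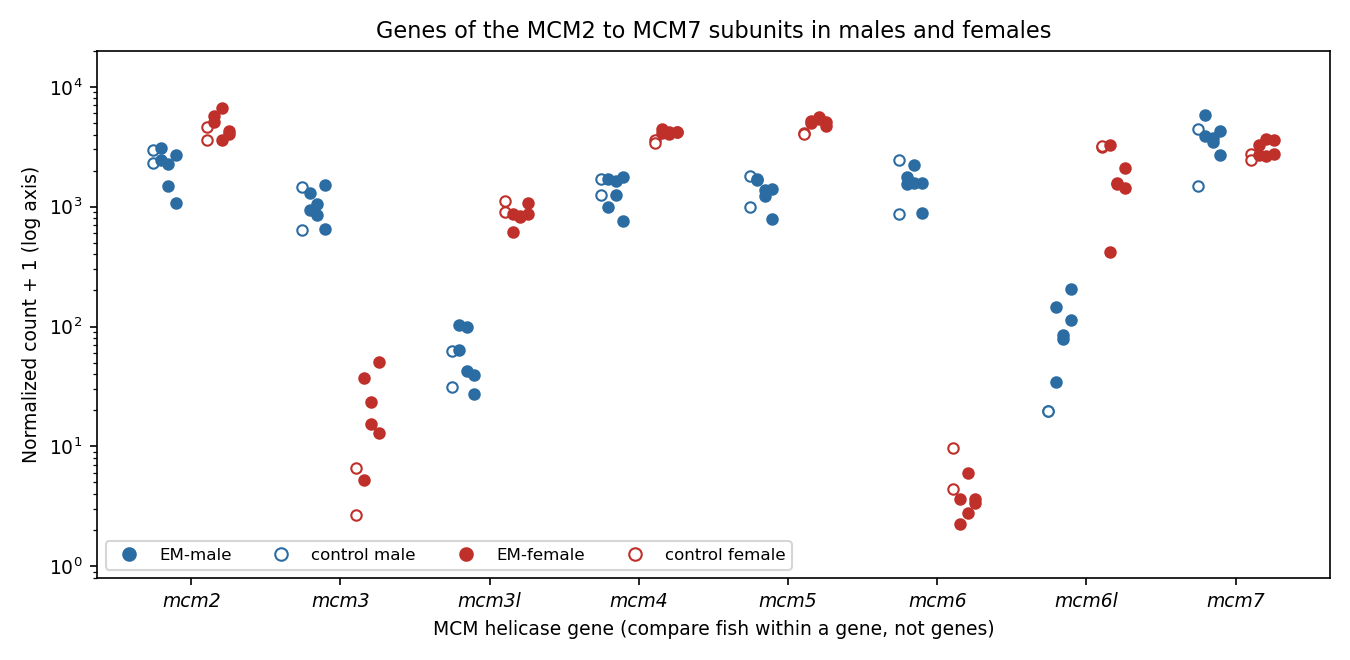
Normalized count + 1 (log axis) of 8 genes of the MCM helicase subunits in each fish, males left and females right of each gene, EM-treated fish filled and controls open. *mcm6* and *mcm3* are high in males and *mcm6l* and *mcm3l* in females, with *mcm6l* at 18.7 to 204 normalized counts in males and 417 to 3279 in females.

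Among the other subunits of the origin recognition complex, *orc3* and *orc6* were lower in EM-males, with log2 fold changes of −1.80 and −2.88, *orc4* was higher, with 0.88, and *orc2* (0.02) and *orc5* (−0.27) were not called. Against the 135-fold range of *orc1*, *orc3* ranged from 1520 to 1678 and *orc6* from 1024 to 1487 over the 8 females. The licensing factor *cdt1* averaged 276 in EM-males and 3242 in EM-females, with a log2 fold change of −3.67, and *cdc6*, the partner of ORC1, averaged 261 and 542, with −1.17.

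Of the 16 genes of histone supply and chromatin assembly, *nasp* included, 12 were called as lower and 2 as higher in EM-males. Over all genes tested, 34.6% were called as lower and 41.4% as higher, and the call of *nasp* is no test in this contrast. *slbp2*, for the oocyte form of the histone mRNA binding protein, averaged 136 in EM-males and 5728 in EM-females (log2 fold change −5.51), and ranged from 5125 to 6672 over the 8 females. The linker histone gene *h1m*, of the egg, had −8.55, and *npm2b*, a nucleoplasmin gene, −3.98. Of the CAF-1 genes, *chaf1b* had −1.22 and *chaf1a* 0.06, not called. Between ovaries, *npm1a*, a nucleophosmin gene, ranged 9.69-fold and *chaf1a* 4.06-fold.

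Counted in full, the 106 replication genes identified of 114 listed included 13 called as higher and 68 as lower in EM-males, with 25 not called. Over all genes tested, 41.4% were called as higher and 34.6% as lower, 76% in all, so a call was the common outcome. The median log2 fold change was −0.99 for the 106 genes, against 0.19 over all genes tested. Without the 3 genes there were 13 higher and 65 lower of 103. The counts by function include the 3 genes, although the calls of *nasp* and *orc1* are no test in this contrast. By function, 3 were higher and 12 lower of 20 in origin licensing, 1 and 11 of 13 in helicase activation, 3 and 17 of 30 among polymerases and fork proteins, 2 and 12 of 16 in histone supply and chromatin assembly, 0 and 5 of 8 in nucleotide supply, and 4 and 11 of 19 among mitotic cyclins and kinases. Where the symbol came from the reference table rather than from the study's tables of called genes, 9 were higher and 23 lower of 51. There 19 were not called, and the median was −0.51. The other genes were named by tables of genes called in the study, so their counts are not independent of that naming. The log2 fold change of *mcm6l* lay far below the median of its list, −1.43. For *nasp*, as a description, it was −3.90 against −1.80 for its list, while its difference in mean log2 values was −2.20.

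**Figure D5:**
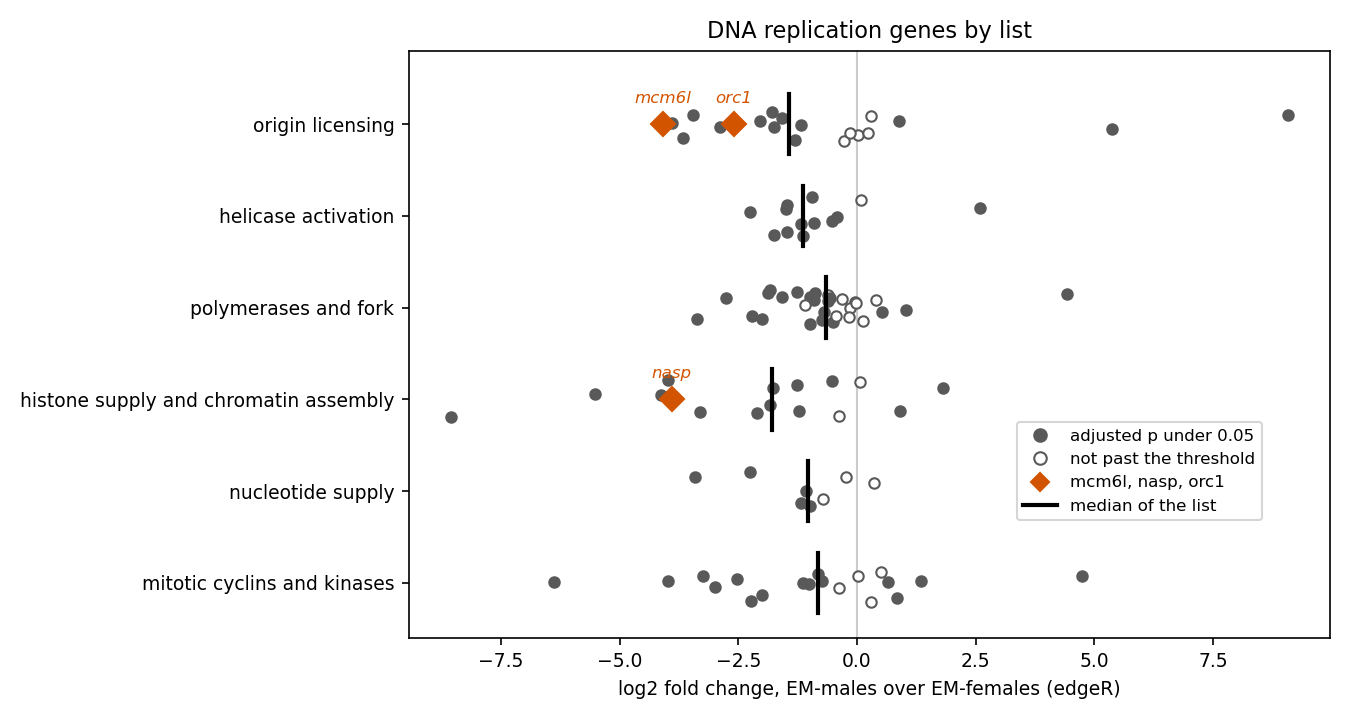
log2 fold change of EM-males over EM-females (edgeR, horizontal axis) for 106 replication genes in 6 lists, filled where the adjusted p is under 0.05, with a bar at the median of each list. *mcm6l* (−4.09), *orc1* (−2.59) and *nasp* (−3.90) are diamonds left of their lists' medians. The fill of *nasp* and *orc1* is no test, since some of these females had entered their choice. The point farthest right is *mcm6*, at 9.08.

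The effect of EM was tested within each sex, with the 3 concentrations pooled. In males, 0.00515% of 19417 genes were called, 1 gene, while 1188 had an unadjusted p under 0.05, and none of the 3 genes was called with edgeR. The control fish of both sexes had entered the table of identifiers, so p-values against controls are not independent of the choice of genes.

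*mcm6l* had 33.5 to 204 normalized counts in the 6 EM-males, all above the 18.7 and 18.7 of the control males, a pattern of 5.4% of the genes tested. EM-males differed from the control males by 2.53 on the log2 scale (standard error 0.74; edgeR adjusted p = 0.704), and by 2.52 with DESeq2, with an adjusted p of 0.0498. The exact permutation p was 0.0357 (two-sided), the smallest that 6 against 2 fish can give. Adjusted over the 3 genes, as this test was planned, it was 0.107 and did not pass 0.05. With 1 control male no exact test could pass 0.05, as 0.143 is then the smallest p. Neighboring *cul1a* had 2.03 and *exoc3* 1.92, with adjusted p of 0.803 and 0.703 (edgeR). Premeiotic and meiotic germ cell markers summed to 9204 to 35645 in EM-males and 20965 to 33482 in control males, and oocyte markers to 371 to 712 in EM-males and 425 to 499 in control males. Testis markers summed to 14901 to 25721 in EM-males and 24812 to 31243 in control males. *insl3*, a Leydig cell hormone gene, had 2036 to 5114 in EM-males against 13230 and 11037 in control males, and *amh* had 341 to 1743 against 2754 and 1850. *dmc1*, another of these markers, overlapped, with 15.4 to 156 against 179 and 26.3. Log2 fold changes of the 13 testis markers ran from −1.94 to 0.82, with a median of −0.25 and 0 called (edgeR). Their part in the values of *mcm6l* was not tested.

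For *nasp*, EM-males differed from control males by −0.59 on the log2 scale (edgeR adjusted p = 0.890), and for *orc1* by −0.40 (edgeR adjusted p = 0.954). Without control male replicate 2 that of *orc1* was 0.56. The values overlapped for both genes.

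In females, 0.0126% of 15907 genes were called between EM-females and control females, 2 genes, with 1867 at an unadjusted p under 0.05, and none of the 3 was among them. Relative to control females, *mcm6l* in EM-females was at −0.91 on the log2 scale (standard error 0.55; edgeR adjusted p = 0.567). As a description, the value was 0.61 for *nasp* (standard error 1.80) and 0.93 for *orc1* (standard error 1.99). The signs of *nasp* and *orc1* depended on the fish and the model. The values were −0.33 and −0.04 without control female replicate 2, and −0.41 and −0.31 in a model of all 16 libraries.

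Between concentrations, the females at 200 against 50 μg/L were the contrast in which *nasp* and *orc1* had been noticed. There *nasp* had 384 and 368 normalized counts against 9395 and 12264, *orc1* had 22.1 and 16.6 against 1037 and 784, and *mcm6l* had 2106 and 1422 against 3279 and 417. The log2 fold changes were −4.83, −5.54 and −0.05, with 0.0403% of 14889 genes called, from which nothing is read here. One control female and 1 female at 100 μg/L were as low as those at 200 μg/L for both genes. In males the same contrast gave −0.95 for *nasp*, 0.08 for *orc1* and 0.86 for *mcm6l*, with adjusted p of 0.978, 0.998 and 0.978 (edgeR). Of 17319 genes, 0% were called in males, 0 with edgeR against 107 with DESeq2, and 616 had an unadjusted p under 0.05.

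Whether EM acted differently in the sexes was tested as an interaction over all 16 libraries, as the log2 difference of the effect in females minus that in males. It was −3.40 for *mcm6l* (standard error 0.90, adjusted p = 0.422, edgeR), and −3.43 with an adjusted p of 0.0442 in DESeq2. The interaction uses the control fish that had entered the table of identifiers, so these p-values are not independent of the choice of *mcm6l*. As a description, it was 1.21 for *nasp* and 1.37 for *orc1*. With edgeR 0% of 22106 genes were called, 0 genes against 111 with DESeq2, while 1680 had an unadjusted p under 0.05. Of the replication genes, 105 were tested for EM in each sex and 106 for the interaction, with 0 calls by edgeR. An unadjusted p under 0.05 was found for 25 of them in females, 3 in males and 7 for the interaction. Over all genes these were 1867 of 15907, 1188 of 19417 and 1680 of 22106. No test of the lists as sets was made.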

How the data were processed

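RNA-seq libraries of 16 gonads, from 8 groups of 2 fish, were used. Per the methods of the study, the authors sequenced stranded polyA+ libraries, aligned reads to GRCz11 with HISAT2 2.0.5, used SAMtools 1.5 to remove PCR duplicates and HTSeq 0.9.1 for stranded counting per gene. The deposited tables hold these raw counts and a signal of normalized counts made by the authors, which equaled count over size factor within 5.39e-08%. Reads that align to several places are lost, which affects paralogs, and removal of duplicates can lower the counts of abundant genes. A count of 3 corresponds to 1.59 to 8.02 normalized counts, depending on the library.

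Tests on the counts used edgeR 4.0.16 under R 4.3.3 (TMM scaling, filterByExpr, robust quasi-likelihood test, Benjamini-Hochberg adjustment over all genes tested, threshold 0.05), on the groups compared. The standard error is the log2 fold change over the square root of F. Alternatives were DESeq2 1.42.0, its size factors in edgeR, no filter, a model of all 16 libraries, a block by replicate number, concentration as a covariate and leaving out each fish. Exact permutation tests used log2(normalized count + 1). The HTSeq tallies that name no gene were left out, and reads aligned to several places were 24.8 to 36.7% of a library. The edgeR steps were tested on simulated data. Python 3.11.15, pandas 2.3.3, NumPy 2.4.6 and matplotlib 3.10.9 were used.

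Of 32520 IDs, 24067 were named, 19679 by a reference table and 4388 by symbols in the tables of the study. Gene order is that of RefSeq on GRCz12tu, so no coordinates are given. The genes named were the 3 genes, the replication lists, for each of the 3 the 5 genes with the highest and the 3 with the lowest Pearson's r over the 8 females (mean of at least 50 normalized counts), and the 5 annotated genes on either side. The 3 genes and the lists were chosen with earlier results of these data known.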

Additional observations from a re-analysis of the deposited data

How the results depend on the processing

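The call of *mcm6l* between EM-males and EM-females held in all 18 alternatives run. There *orc1* had −1.55 when all 16 libraries were modeled and −1.90 with concentration as a covariate, as values with no test. Leaving out 1 fish gave 13099 to 13741 genes called there. On mean log2 values, leaving out 1 fish gave −4.30 to −3.64 for *mcm6l*, −2.73 to −1.58 for *nasp* and −1.22 to 0.0817 for *orc1* between EM-males and EM-females. Between EM-males and control males it gave 2.06 to 2.58 for *mcm6l*, −0.91 to −0.40 for *nasp* and −1.04 to 0.40 for *orc1*.

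Counts of genes called for EM were small and moved with the tool, and the cause was not tested. For EM-females against control females there were 392 with DESeq2, 7 without the filter, 1 in the model of all 16 libraries and 0 to 20 with 1 fish left out. For EM-males against control males there were 126 with DESeq2, 0 in the model of all 16 libraries and 0 to 7 with 1 fish left out. For females at 200 against 50 μg/L there were 217 with DESeq2, 59 without the filter, 0 in the model of all 16 libraries and 0 to 18 with 1 fish left out. For males there were 107, 14 and 1 under the first 3 of these settings. The interaction gave 111 with DESeq2 and 0 to 5 with 1 fish left out.

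Signs that turned were those of *nasp* and *orc1* in EM-females against control females, −0.41 and −0.31 in the model of all 16 libraries, with ranges of −0.33 to 4.34 and −0.0373 to 5.56 when 1 fish was left out. For *orc1* the range was −0.96 to 0.56 in EM-males against control males and −0.80 to 1.11 in males at 200 against 50 μg/L. For *mcm6l* in females at 200 against 50 μg/L it was −0.88 to 2.09.

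Equal replicate numbers name different animals. The r of residuals between groups ran from −0.29 to 0.30 over 28 pairs of groups, and 3 pairs were over 0.1. These were the pairs of EM-male groups, with 0.142, 0.219 and 0.299, while control males had −0.20, −0.25 and −0.29 with them. Since the other pairs were not over 0.1, the numbers were not taken as pairing the libraries. Replicate 1 was above replicate 2 at each concentration in EM-males for *mcm6l*, *nasp* and *cul1a*. It also had the larger size factor there, 0.787 against 0.448, 1.17 against 0.922 and 0.680 against 0.469 at 50, 100 and 200 μg/L. In control males replicate 1 had the smaller, 0.374 against 1.44. The part of depth was not tested. With the replicate block 15017 genes were called between EM-males and EM-females, with −2.64 for *orc1*. The block gave 0 calls for EM-males against control males, 1 for females at 200 against 50 μg/L, and 0.57 for *mcm6l* in females at 200 against 50 μg/L. Depth, with medians of 5666585.5 reads in EM-males and 12210745.5 in EM-females, limits low values such as *mcm6l* in control males.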
